A study of Mus musculus with 6 samples.

Results

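Complement is a protein cascade that tags cells, synapses and deposits for removal. The C1q complex (chains encoded by C1qa, C1qb and C1qc) starts its classical branch, C4 and C3 are cleaved onto the tagged surface, and the fragments act on receptors of phagocytes. In the brain, microglia are the main source of C1q, and complement has been tied to synapse loss around amyloid plaques. The 8 genes described here are the 3 C1q chains, the cascade proteins C3 and C4b, the receptors for the small fragments C3a and C5a (C3ar1 and C5ar1), and Itgam, the alpha chain of complement receptor 3 (CD11b), which takes up C3-tagged material. They were picked by symbol, all 8 matched, and they are 8 of 32285 genes in each count matrix.

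The data are single-nucleus RNA-seq of NeuN-negative nuclei, meaning nuclei sorted as lacking a neuronal protein, from cortex of mice aged 7.5 months. The 6 libraries form 3 groups of 2: 5xFAD with the P522R variant of phospholipase C-γ2 (5xFAD-P522R, here P522R), 5xFAD with its M28L variant (5xFAD-M28L, here M28L), and 5xFAD alone. All groups thus carry 5xFAD, mutant human amyloid precursor and presenilin transgenes driven by a promoter active in neurons. No mice without it are among the samples, and the labels give no zygosity of the variants. The replicates are numbered 2 and 3 in each group and each library pooled male and female nuclei. The labels leave unsaid whether both libraries of a group came from separate animals, and the p-values below reflect only how far libraries differ, which may be technical.

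Each library held 9269 to 13783 barcodes with 53326947 to 72288942 UMIs (counted transcript molecules), and any 2 libraries shared 20 to 71 barcodes. Clusters were made without the complement genes and named from marker genes, so names end in "-like". All 10 of 10 oligodendrocyte markers, 9 of 10 microglial, 8 of 10 astrocyte and 8 of 8 border macrophage markers were highest in the clusters of that name, which held 23151, 7770, 3905 and 410 nuclei. The library 5xFAD replicate 2 stood apart. Of its female microglia-like nuclei (those with a UMI of Xist and none of 4 Y-linked genes), 3 of 416 lay in the disease-associated cluster described below, a share of 0.721% (exact 95% interval 0.15% to 2.09%, counting error only), against 25.6% to 57.1% in the other 5 libraries. Its median depth was also the lowest of the 6 libraries, 3842 UMIs per barcode. Of its female microglia-like nuclei 93.5% lay in the homeostatic cluster, against 47.6% of its male ones. Its genotype was taken from the label and not checked here, and all 5xFAD values and sex differences below rest on that label. The main fold changes against 5xFAD are also given without this library.

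In GRCm38 (GENCODE vM21) the C1q genes lie side by side on the minus strand of chromosome 4, C1qb at 136880129 to 136886187, C1qc at 136889804 to 136893065 and C1qa at 136895917 to 136898803, a span of 18.7 kb. C4b (chromosome 17, 34728380 to 34743882) has a near-identical neighbour, C4a, 65.2 kb away, so reads could be split between the pair and the C4b counts are uncertain in that respect. C3 is on the same chromosome at 57203970 to 57228136, C3ar1 on chromosome 6 at 122847138 to 122856161, C5ar1 on chromosome 7 at 16246743 to 16259540, and Itgam on the plus strand of chromosome 7 at 128062640 to 128118491. RefSeq's promoter windows (build GRCm38.p6, 250 bases before the start to 50 after) were at hand for 6 of the 8 genes, and not for C1qa and C4b. They were searched on both strands for AGGAAGT, a core bound by ETS factors such as PU.1, a regulator of myeloid genes. The letters occurred in 3 of the 6, C1qb, C1qc and C5ar1, and in 9.35% of all 32851 promoter windows of that length. These 3 are shown because they hold the letters, and C3ar1 as a receptor gene of the same cells that does not. Capitals mark the match, which reads ACTTCCT here because it lies on the opposite strand, 53 bases before the start in C1qb, 195 in C1qc and, for the first of 2 matches, 190 in C5ar1. C3ar1, Itgam and C3 held no match in this window. A match is a description of the letters and not a site of binding. The windows are chr4:136886151-136886450, chr4:136892865-136893164, chr7:16259289-16259588 and chr6:122856108-122856407, all on the minus strand and written 5′ to 3′ in the direction of the gene.
C1qb: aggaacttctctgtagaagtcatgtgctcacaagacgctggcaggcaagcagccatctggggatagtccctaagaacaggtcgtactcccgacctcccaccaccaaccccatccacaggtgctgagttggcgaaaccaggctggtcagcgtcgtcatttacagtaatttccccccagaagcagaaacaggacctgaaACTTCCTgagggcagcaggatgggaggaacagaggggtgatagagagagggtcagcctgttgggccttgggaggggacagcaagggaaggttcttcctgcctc
C1qc: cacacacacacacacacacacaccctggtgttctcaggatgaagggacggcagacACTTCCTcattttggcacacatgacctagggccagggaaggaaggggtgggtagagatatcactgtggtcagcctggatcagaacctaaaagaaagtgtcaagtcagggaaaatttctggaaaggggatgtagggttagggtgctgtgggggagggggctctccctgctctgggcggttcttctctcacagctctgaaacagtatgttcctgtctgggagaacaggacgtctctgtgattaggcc
C5ar1: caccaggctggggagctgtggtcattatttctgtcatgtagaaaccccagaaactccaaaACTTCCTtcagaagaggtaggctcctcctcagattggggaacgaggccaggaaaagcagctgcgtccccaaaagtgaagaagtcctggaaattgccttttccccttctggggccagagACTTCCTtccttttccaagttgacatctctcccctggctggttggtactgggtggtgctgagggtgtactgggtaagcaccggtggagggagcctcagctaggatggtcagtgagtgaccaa
C3ar1: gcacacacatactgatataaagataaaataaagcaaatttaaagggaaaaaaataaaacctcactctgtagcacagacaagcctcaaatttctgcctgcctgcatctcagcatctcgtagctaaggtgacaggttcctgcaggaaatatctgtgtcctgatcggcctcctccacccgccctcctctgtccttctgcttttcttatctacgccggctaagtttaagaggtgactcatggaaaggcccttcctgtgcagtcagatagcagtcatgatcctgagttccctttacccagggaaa

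The 8 genes fell into 3 patterns across cell types. The C1q chains, C3ar1, C5ar1 and Itgam were genes of microglia-like nuclei and of border macrophage-like nuclei, which are macrophages along vessels and meninges. C4b was highest in oligodendrocyte-like, olfactory ensheathing-like and astrocyte-like nuclei. C3 was barely detected anywhere. Levels here are UMIs of a gene scaled by all UMIs of a cell type (CPM), not normalized further, as mean ± SD over the 6 libraries. C1qa had 136 ± 24.6 CPM in border macrophage-like and 93.0 ± 11.7 in microglia-like nuclei. C1qb had 239.6 ± 40.2 CPM in border macrophage-like and 173 ± 29.5 in microglia-like nuclei, and C1qc had 151 ± 27.0 and 132 ± 20.003. For each chain the ranges of these 2 populations overlapped, and both lay above every library of every other type, where means were at most 8.85 CPM.

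The receptors divided the same 2 populations differently. Itgam had 365 ± 39.5 CPM in microglia-like nuclei and 121 ± 27.0 in border macrophage-like nuclei. C5ar1, the receptor of the attractant fragment C5a, had 20.2 ± 5.05 CPM in microglia-like nuclei and 73.0 ± 31.1 in border macrophage-like nuclei. In both genes the libraries of the 2 populations did not overlap. C3ar1 had 53.4 ± 6.17 and 65.9 ± 15.96 CPM in microglia-like and border macrophage-like nuclei, with overlapping ranges. For every UMI of Itgam there were 1.096 UMIs of the C1q chains in microglia-like nuclei, 4.36 in border macrophage-like nuclei and 3.26 and 5.15 in oligodendrocyte-like and astrocyte-like nuclei, where both are at trace levels.

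C4b, the mouse C4 gene, was highest on average in oligodendrocyte-like nuclei. It had 215 ± 84.9 CPM in oligodendrocyte-like nuclei (range 64.6 to 307 over the 6 libraries). Olfactory ensheathing-like nuclei, 93 nuclei of 5 libraries, came next at 191 ± 68.6. Then came 132 ± 32.8 in astrocyte-like nuclei and 83.9 ± 11.6 in border macrophage-like nuclei. These neighbours overlapped in their ranges. Fibroblast-like nuclei followed at 44.7 ± 13.5, committed oligodendrocyte precursor-like at 43.3 ± 25.3, oligodendrocyte precursor (OPC)-like at 31.5 ± 9.78, pericyte-like at 31.4 ± 30.8, endothelial-like at 19.0 ± 8.72, microglia-like at 17.5 ± 6.41 and neuron-like at 8.48 ± 2.94. The lowest border macrophage-like library, at 69.7 CPM, lay just above the highest fibroblast-like one, at 67.9. Types further down this order still reached into the border macrophage-like range. The highest library had 83.0 CPM in committed oligodendrocyte precursor-like and 76.3 in pericyte-like nuclei.

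With each nucleus thinned to 1000 UMIs, which kept all microglia-like nuclei and 2924 to 4891 of the 2943 to 4902 oligodendrocyte-like nuclei of a library, 15.9% of microglia-like nuclei had a UMI of C1qb, against 0.317% of oligodendrocyte-like nuclei, a type that should lack it. Unthinned, the microglial share was 44.3%, at median depths of 2785.5 to 3857 UMIs per library. Itgam was detected in 28.6% and C3ar1 in 5.18% of thinned microglia-like nuclei. C4b was detected in 16.6% of thinned oligodendrocyte-like and 11.2% of thinned astrocyte-like nuclei, against 1.73% of microglia-like and 0.678% of endothelial-like nuclei.

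C3, the centre of the cascade, had 5 UMIs in all microglia-like nuclei, 5 in astrocyte-like, 9 in OPC-like and 1 each in neuron-like, oligodendrocyte-like and olfactory ensheathing-like nuclei. In border macrophage-like nuclei it had 0 of 1684177 UMIs, which allows up to 1.78 CPM. At this depth no comparison of C3 was possible, and it did not pass the filter on low counts in any cell type.

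**Figure D1:**
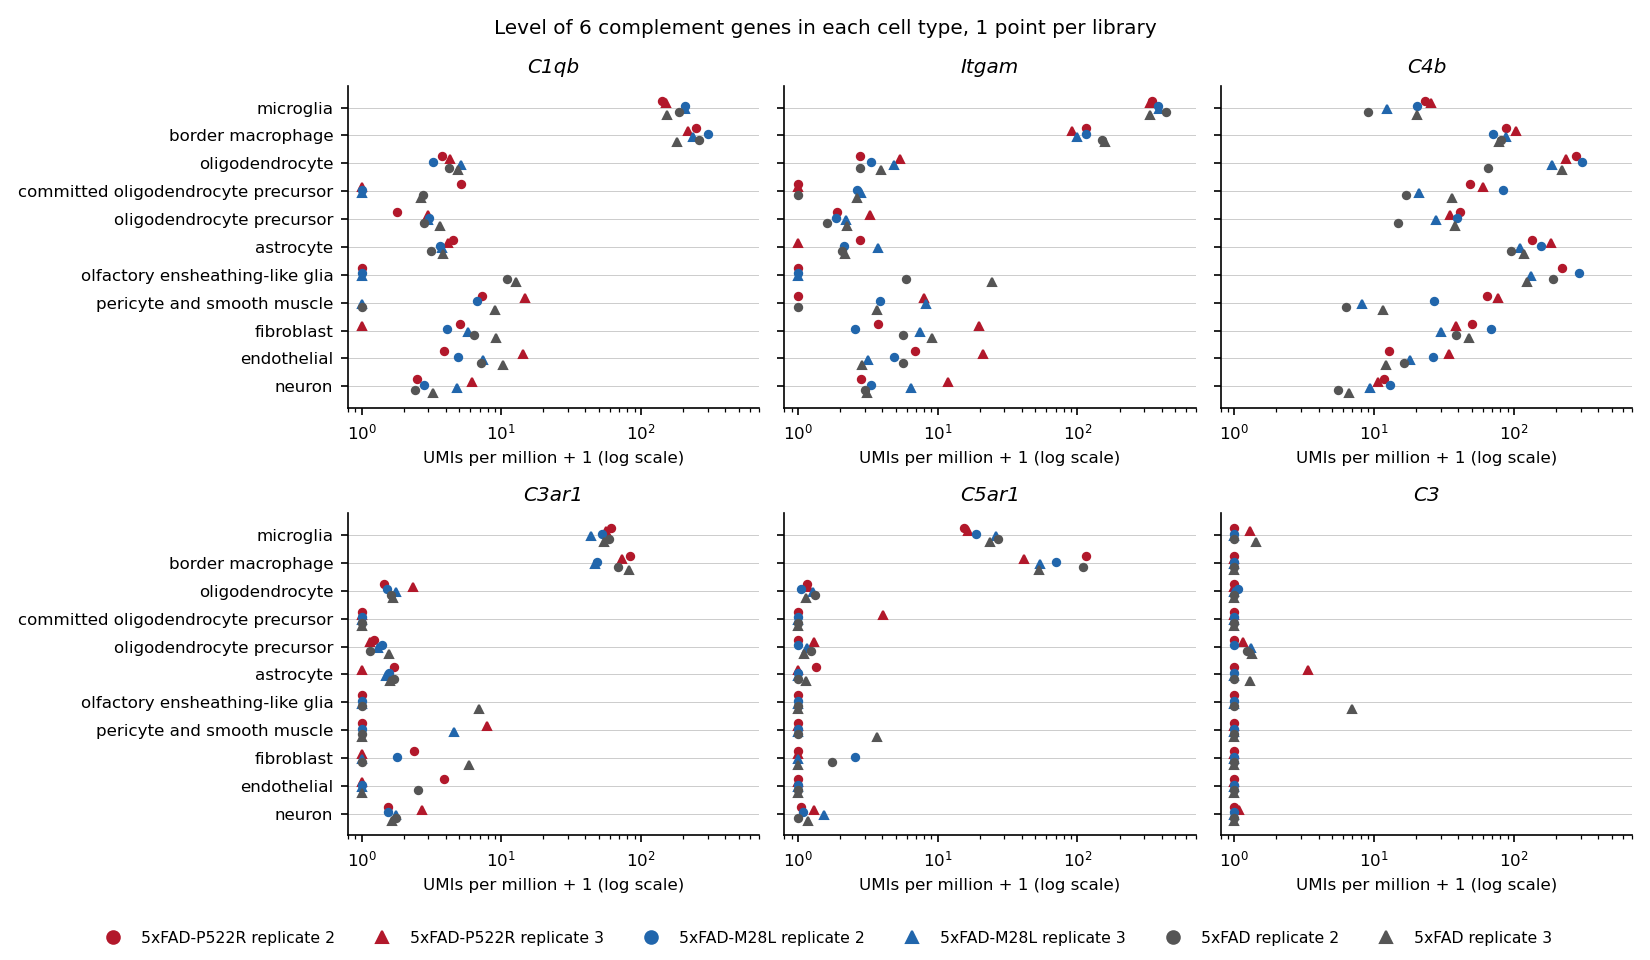
Level of 6 of the genes (CPM plus 1, log axis) in each cell type, with 1 point per library. C1qb, Itgam, C3ar1 and C5ar1 sit in microglia-like and border macrophage-like nuclei, C4b reaches 307 CPM in oligodendrocyte-like nuclei, and C3 is near 0 throughout.

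The variants were compared within microglia-like nuclei, the cells the series title is about. The C1q chains and C5ar1 had lower values in both P522R libraries than in every M28L and 5xFAD library, and C4b had higher ones. C3ar1 and Itgam did not set both P522R libraries apart from all others. None of these differences passed the threshold over all genes. With 2 libraries a group such an order also arises by chance. It was not set against the share of all genes that show it, so it is only a description. The same limit holds for the orders of libraries given below. Values are TMM-normalized CPM, replicate 2 before replicate 3, from 879 to 1653 nuclei and 3578387 to 6953542 UMIs per library. C1qb had 137 and 150.4 in P522R, 208 and 209.9 in M28L, and 187 and 153 in 5xFAD. Its lowest 5xFAD library was thus next to the highest P522R library.

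C1qc had 111 and 105 in P522R, 149 and 148 in M28L, and 154 and 131 in 5xFAD. C1qa had 80.6 and 77.0 in P522R, 98.7 and 107 in M28L, and 105 and 92.1 in 5xFAD. In each of the 3 chains both P522R libraries were thus lowest. The chains were counted in the same nuclei of the same libraries, so their shared order is no separate support. By edgeR's quasi-likelihood test with Benjamini-Hochberg adjustment, the log2 fold change of P522R against M28L was −0.54 for C1qb (SE 0.12, adjusted p = 0.204), −0.46 for C1qc (SE 0.11, adjusted p = 0.23) and −0.39 for C1qa (SE 0.11, adjusted p = 0.29). Against 5xFAD, P522R gave −0.40 for C1qc (SE 0.11, adjusted p = 0.265), −0.32 for C1qa (SE 0.11, adjusted p = 0.36) and −0.24 for C1qb (SE 0.12, adjusted p = 0.4931). M28L against 5xFAD gave 0.30 for C1qb (SE 0.12, adjusted p = 0.884) and 0.07 for each of C1qa and C1qc. Without 5xFAD replicate 2 the values of P522R against 5xFAD were −0.28 for C1qc, −0.23 for C1qa and −0.090 for C1qb, and that of M28L against 5xFAD was 0.45 for C1qb (adjusted p = 0.208).

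C5ar1 had 13.97 and 15.6 in P522R, 18.01 and 25.7 in M28L, and 26.2 and 22.4 in 5xFAD. Its log2 fold change was −0.70 for P522R against 5xFAD (SE 0.21, adjusted p = 0.307), −0.56 for P522R against M28L (SE 0.22, adjusted p = 0.391) and −0.14 for M28L against 5xFAD. Without 5xFAD replicate 2 the first of these was −0.59 (adjusted p = 0.70). C3ar1 had 58.85 and 56.1 in P522R, 51.8 and 43.7 in M28L, and 57.7 and 52.8 in 5xFAD, so that both M28L libraries were lowest. The receptor integrin Itgam had 333 and 333 in P522R, 380.0 and 394 in M28L, and 431 and 328 in 5xFAD, so the 5xFAD pair enclosed all other libraries. The part of state shares, given below, in these levels was not tested. C4b had 21.8 and 24.7 in P522R, 19.6 and 11.6 in M28L, and 8.09 and 19.1 in 5xFAD.

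In microglia-like nuclei 7 of the 8 genes passed the filter on low counts, and edgeR called 0 of them in each comparison. Over all 13716 genes it called 0% for P522R against 5xFAD, 0.00729% (1 gene) for M28L against 5xFAD and 0.00729% (1 gene) for P522R against M28L. At an unadjusted p under 0.05 there were 3, 1 and 4 of the 7 genes, beside 11.4%, 5.40% and 11.3% of all genes, and DESeq2 called 0. C1qb passed between the variants in 5 alternative fits, among them those without 5xFAD replicate 2 (adjusted p = 0.0209) and without 5xFAD replicate 3 (adjusted p = 0.0219). C1qc passed in the same pair of fits (adjusted p = 0.0441 and adjusted p = 0.0449), and for P522R against 5xFAD without 5xFAD replicate 3 (−0.52, adjusted p = 0.0433). In that last fit 5xFAD is replicate 2 alone, the library that stood apart, and is assumed to vary like the other groups. With no filter on low counts C4b (adjusted p = 0.0413) and C5ar1 (adjusted p = 0.0455) passed for P522R against 5xFAD.

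Transcripts of another cell type were present beside C4b in microglia-like nuclei. The 10 oligodendrocyte transcripts of a fixed list were all detected there and summed to 2690 and 4042 CPM in P522R, 2270 and 2408 in M28L, and 2091 and 2203 in 5xFAD. The sums of both P522R libraries were highest, as were their C4b values, but within M28L the library with the higher sum had the lower C4b. A cluster of microglia-like nuclei with such transcripts (cluster 4 below), 184 of 7770 nuclei, held 166 of the 560 UMIs of C4b. It took 3.19% and 7.18% of microglia-like nuclei in P522R, 1.07% and 0.573% in M28L, and 0.577% and 1.27% in 5xFAD. The part of such transcripts in the microglial C4b values was not tested.

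**Figure D2:**
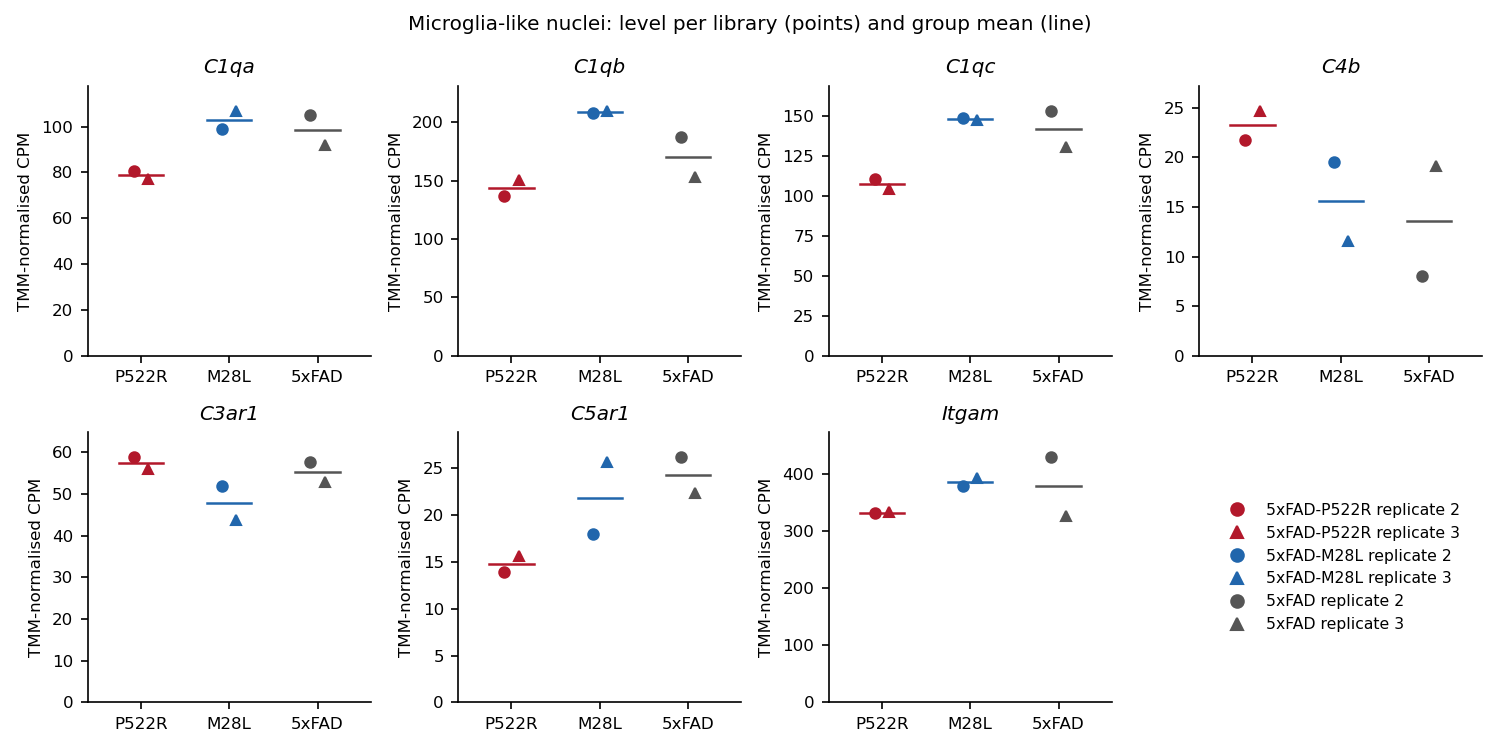
TMM-normalized CPM of 7 genes in microglia-like nuclei, with a point per library and a line at the mean of each group of 2. For the C1q chains and C5ar1 both P522R points lie below the 4 others, an order not set against its share over all genes. For C1qb P522R reaches 150.4 and the lower 5xFAD library is at 153.

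Microglia-like nuclei were then divided into clusters. The largest, 2901 nuclei, carried 18 of 18 measured markers of disease-associated microglia, the state found around plaques. The next, 2664 nuclei, carried 9 of 13 markers of homeostatic microglia. A further cluster, 1514 nuclei with Cd83 among its leading genes, stayed unnamed and is called cluster 2. An interferon-responsive cluster had 467 nuclei, an unnamed cluster with oligodendrocyte transcripts (cluster 4) had 184, and a cycling cluster had 40.

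Disease-associated nuclei had less C1q and Itgam and more C3ar1 per UMI than homeostatic nuclei of the same library. C1qb averaged 137.5 ± 21.4 CPM in the disease-associated and 207 ± 27.0 in the homeostatic cluster (SD, n = 6 libraries). C1qc averaged 100.3 ± 11.47 and 164 ± 14.2, and C1qa 74.3 ± 4.39 and 112 ± 15.9. Itgam averaged 293 ± 44.8 and 477 ± 31.8. C3ar1 went the other way, with 66.7 ± 12.3 in the disease-associated and 41.8 ± 6.45 in the homeostatic cluster.

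In each of these 5 genes the direction held in 6 of 6 libraries. They are given as a description without a test because the clusters come from the same nuclei, although these genes were kept out of the clustering. C5ar1 did not divide the clusters, at 20.2 ± 7.46 and 20.6 ± 6.25 CPM, and neither did C4b, at 11.3 ± 4.21 and 13.8 ± 5.43. In the interferon-responsive cluster C1qb averaged 215 ± 46.8 and C4b 29.5 ± 18.2 CPM, on 43 UMIs of C4b. In cluster 2 C1qb averaged 202 ± 10.98 and C5ar1 27.1 ± 10.7. C4b was highest, 82.7 ± 38.5 CPM, in cluster 4, the cluster with oligodendrocyte transcripts.

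**Figure D3:**
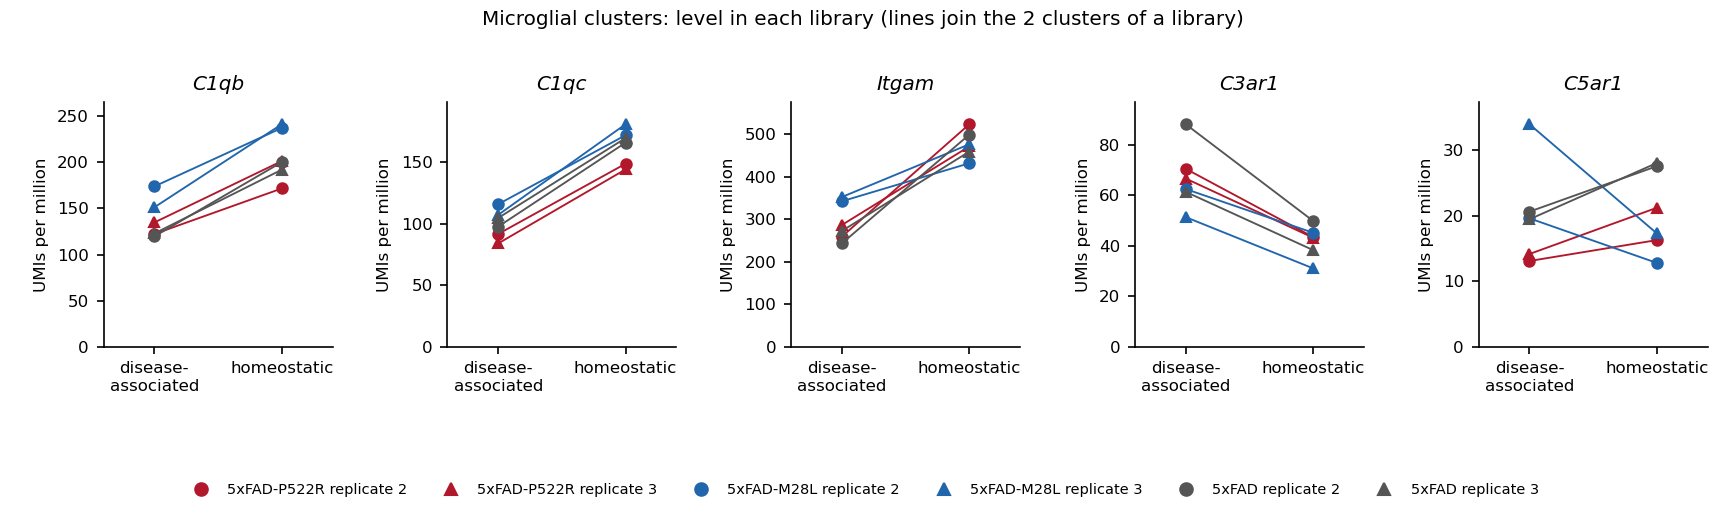
CPM of 5 genes in the disease-associated and the homeostatic cluster, with a line joining the 2 clusters of each library. Lines for C1qb, C1qc and Itgam run upward to the homeostatic cluster and lines for C3ar1 downward in 6 of 6 libraries, and those for C5ar1 cross.

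The clusters took different shares of each library. The disease-associated cluster held 51.4% and 49.7% of microglia-like nuclei in P522R, 22.9% and 24.7% in M28L, and 18.9% and 52.6% in 5xFAD. The homeostatic cluster held 26.5% and 23.7% in P522R, 37.0% and 33.8% in M28L, and 65.4% and 23.8% in 5xFAD. Cluster 2 held 14.4% and 14.8% in P522R, 30.5% and 32.7% in M28L, and 8.40% and 16.03% in 5xFAD, and was thus largest in both M28L libraries. Both 5xFAD libraries thus lay apart, with replicate 3 next to P522R and replicate 2 below M28L in the first share. Genotypes were therefore also compared inside each cluster.

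Inside the disease-associated cluster M28L stood above P522R and 5xFAD for C1qb and Itgam, and P522R stood lowest for C1qc and C5ar1. C1qb had 121 and 136 normalized CPM in P522R, 176 and 156 in M28L, and 123 and 124 in 5xFAD. Itgam had 257 and 288 in P522R, 347 and 363 in M28L, and 249 and 275 in 5xFAD. C5ar1 had 12.96 and 14.2 in P522R, 19.9 and 35.0 in M28L, and 21.1 and 19.6 in 5xFAD. The P522R libraries were thus lowest in C5ar1 but not in C1qb, where one of them lay below and one above both 5xFAD libraries. C1qc had 90.7 and 84.5 in P522R, 117 and 110.4 in M28L, and 100.001 and 105 in 5xFAD. C1qa, at 67.5 and 76.6 in P522R, 76.8 and 78.1 in M28L, and 81.7 and 70.2 in 5xFAD, did not separate P522R from 5xFAD.

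By edgeR's quasi-likelihood test with Benjamini-Hochberg adjustment, Itgam differed by 0.42 on the log2 scale for M28L against 5xFAD (SE 0.11, adjusted p = 0.0689) and by −0.38 for P522R against M28L (SE 0.10, adjusted p = 0.0828). C5ar1 differed by −1.03 for P522R against M28L (SE 0.30, adjusted p = 0.105) and passed without M28L replicate 2 (−1.35, adjusted p = 0.0283), where M28L is its higher library alone, assumed to vary like the other groups. Without M28L replicate 3 it was −0.53 (adjusted p = 0.74). C1qb differed by 0.42 for M28L against 5xFAD (SE 0.13, adjusted p = 0.183), by −0.36 for P522R against M28L (SE 0.13, adjusted p = 0.234) and by 0.06 for P522R against 5xFAD (SE 0.13, adjusted p = 0.964). Without 5xFAD replicate 2 the fold changes of M28L against 5xFAD were 0.37 for Itgam (adjusted p = 0.252) and 0.42 for C1qb (adjusted p = 0.335). Of the 8 genes 7 passed the filter here and 0 were called, with 0, 2 and 4 at an unadjusted p under 0.05 for P522R against 5xFAD, M28L against 5xFAD and P522R against M28L, beside 6.72%, 10.3% and 10.2% of all genes. In this cluster the share of all 11042 tested genes called was 0.0272% for P522R against 5xFAD, 0.942% for M28L against 5xFAD and 1.24% for P522R against M28L.

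The disease-associated cluster was itself not made up alike. At a finer resolution a sub-cluster led by Gpnmb and Atp6v0d2, genes of lysosome-rich phagocytes, took 23.01% and 19.8% of its nuclei in P522R, 3.89% and 4.93% in M28L, and 16.1% and 15.4% in 5xFAD. A sub-cluster with the chemokine genes Ccl4 and Ccl6 among its leading genes took 14.2% and 16.8% in P522R, 41.2% and 30.7% in M28L, and 26.1% and 18.6% in 5xFAD. The sexes were also mixed unevenly in this cluster. Female and male nuclei numbered 296 and 76 in P522R replicate 2 and 465 and 135 in P522R replicate 3. In M28L they numbered 102 and 97 in replicate 2 and 217 and 66 in replicate 3. In 5xFAD they numbered 3 and 152 in replicate 2 and 506 and 204 in replicate 3. The part of this make-up, by sub-cluster and by sex, in the levels of C1qb, Itgam and C5ar1 was not tested.

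Inside the homeostatic cluster both M28L libraries were again highest in C1qb, with 171 and 202 normalized CPM in P522R, 242 and 248 in M28L, and 202 and 194 in 5xFAD. The log2 fold change was −0.38 for P522R against M28L (SE 0.12, adjusted p = 0.587) and 0.30 for M28L against 5xFAD (SE 0.11, adjusted p = 0.759). Without 5xFAD replicate 2 the second was 0.33. For P522R against M28L, C1qc gave −0.30 (adjusted p = 0.801) and C1qa −0.35 (adjusted p = 0.833). C5ar1 had 16.3 and 21.3 in P522R, 13.1 and 17.8 in M28L, and 27.8 and 28.4 in 5xFAD, with both 5xFAD libraries highest. Its log2 fold change for M28L against 5xFAD was −0.86 (SE 0.28, adjusted p = 0.734), and −0.87 without 5xFAD replicate 2. Again 7 of the 8 genes passed the filter and 0 were called, beside 0.046%, 0.00919% and 0.0552% of 10877 genes for P522R against 5xFAD, M28L against 5xFAD and P522R against M28L. Over the 4 clusters tested, 15 of 78 tests of members had an unadjusted p under 0.05, beside 5.35% to 10.3% of all genes per comparison, and edgeR and DESeq2 both called 0. In cluster 2 the shares of all genes called were 0.0749%, 0.0321% and 0.0428% in the same order of comparisons, and in the interferon-responsive cluster 0.0523%, 0.122% and 0.0348%.

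Outside microglia the genotype comparison turned on C4b. In oligodendrocyte-like nuclei it had 272 and 237 normalized CPM in P522R, 305 and 193 in M28L, and 63.9 and 222 in 5xFAD. One 5xFAD library, replicate 2, lay far below the 5 others, and the other lay among them. The log2 fold change was 0.84 for P522R against 5xFAD (SE 0.48, adjusted p = 0.53), 0.80 for M28L against 5xFAD (SE 0.48, adjusted p = 0.503) and 0.03 for P522R against M28L. With 5xFAD replicate 2 as the only 5xFAD library, assumed to vary like the other groups, the first became 1.999 (adjusted p = 0.0392) and the second 1.97 (adjusted p = 0.0312). Without that library the same fold changes were 0.20 and 0.17.

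Astrocyte-like nuclei had 129 and 175 of C4b in P522R, 158 and 115 in M28L, and 94.99 and 120.5 in 5xFAD. The log2 fold change was 0.48 for P522R against 5xFAD (SE 0.20, adjusted p = 0.449) and 0.35 for M28L against 5xFAD (SE 0.19, adjusted p = 0.916), and they were 0.31 and 0.19 without 5xFAD replicate 2. OPC-like nuclei had 38.6 and 33.4 in P522R, 38.7 and 27.0 in M28L, and 14.02 and 37.7 in 5xFAD, so that 5xFAD replicate 2 was again lowest. Pericyte-like nuclei had 67.0 and 81.3 in P522R, 27.8 and 7.75 in M28L, and 5.82 and 11.7 in 5xFAD, on 48 UMIs in all. Their log2 fold change was 2.99 for P522R against 5xFAD (SE 0.69, adjusted p = 0.162) and 1.94 for P522R against M28L (SE 0.63, adjusted p = 0.375). The fold change against 5xFAD passed without M28L replicate 3 (adjusted p = 0.0184) and without 5xFAD replicate 3 (3.53, adjusted p = 0.0357), where 5xFAD is replicate 2 alone. Without 5xFAD replicate 2 it was 2.58 (adjusted p = 0.396).

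Border macrophage-like nuclei had 87.8 and 79.5 of C3ar1 in P522R, 53.1 and 51.5 in M28L, and 75.2 and 90.9 in 5xFAD. Both M28L libraries were lowest, on few UMIs, 18 and 16 in P522R, 15 and 12 in M28L, and 28 and 20 in 5xFAD. Microglia-like nuclei with the same order came from the same libraries and are no separate support. Itgam of border macrophage-like nuclei was 122 and 99.4 in P522R, 127 and 112 in M28L, and 167 and 177 in 5xFAD. In the 9 other cell types edgeR called 0 members in 96 tests and DESeq2 called 0. An unadjusted p under 0.05 was found in 9 of the tests, a count not set against the share of all genes. The share of all genes called in these 27 comparisons lay between 0% and 0.163%. It was 0.0218% in astrocyte-like, 0.0244% in endothelial-like, 0.072% in neuron-like and 0.131% in pericyte-like nuclei for P522R against 5xFAD, 0.0244% in endothelial-like and 0.0163% in pericyte-like nuclei for M28L against 5xFAD, and 0.163% in pericyte-like nuclei for P522R against M28L. It was 0.0331%, 0% and 0.0199% in oligodendrocyte-like nuclei for P522R against 5xFAD, M28L against 5xFAD and P522R against M28L.

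Within 1 glial type C4b also differed between clusters. A small oligodendrocyte-like cluster of 249 nuclei, led by interferon-induced genes such as Ifit1 and Rsad2, had 892 and 536 CPM in P522R, 907 and 534 in M28L, and 389 and 487 in 5xFAD. The main oligodendrocyte-like cluster had 268 and 221 in P522R, 275 and 171 in M28L, and 64.0 and 206 in 5xFAD. Among astrocyte-like nuclei, a cluster led by Myoc and Thbs4 had 231 and 231 in P522R, 324 and 235 in M28L, and 223 and 207 in 5xFAD. The larger astrocyte-like cluster had 114 and 160 in P522R, 129 and 88.9 in M28L, and 70.2 and 106 in 5xFAD. In each of these pairs the first cluster was higher in 6 of 6 libraries, and 5xFAD replicate 2 was the lowest library in every named oligodendrocyte-like cluster. Outside these lay 2 unnamed clusters with 10 and 9 of 10 oligodendrocyte markers, which held 7970 and 1276 nuclei before doublets were removed.

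**Figure D4:**
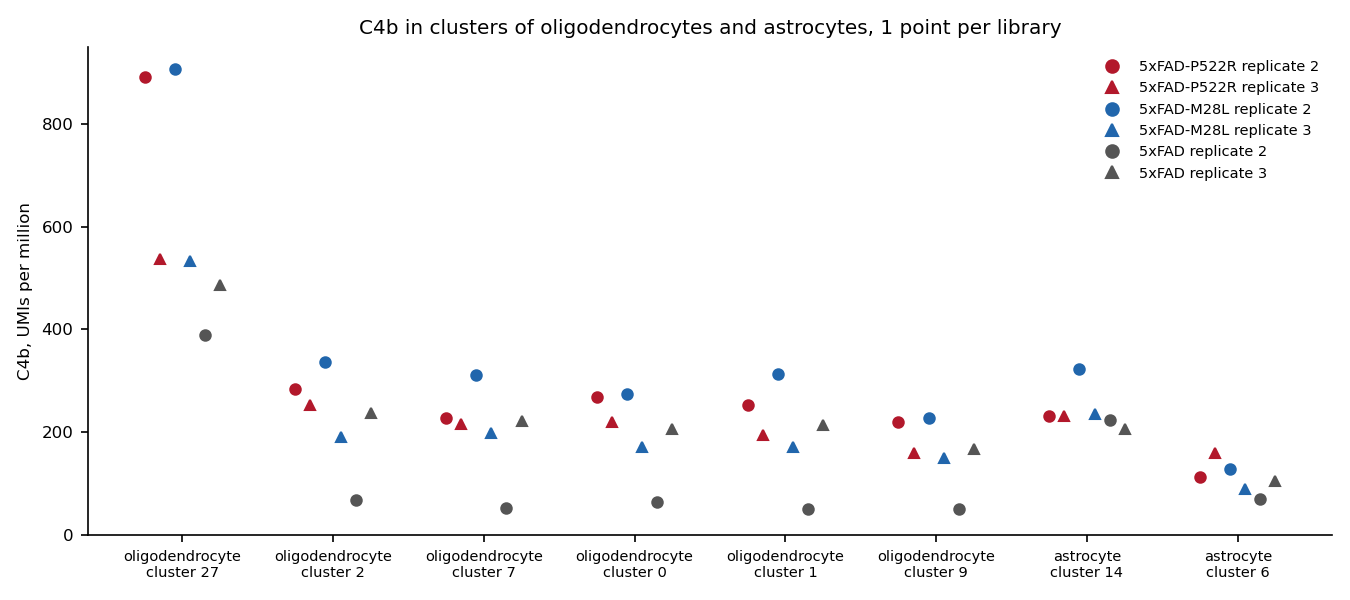
CPM of C4b in each cluster of oligodendrocyte-like and astrocyte-like nuclei, 1 point per library. The interferon-led oligodendrocyte cluster 27 lies between 389 and 907, above the main cluster 0 in every library, and 5xFAD replicate 2 is the lowest point of each named oligodendrocyte cluster.

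Since each library holds both sexes, female and male nuclei were compared within libraries. C4b was higher in female oligodendrocyte-like nuclei in 5 of 6 libraries. Female and male nuclei had 344 and 185 normalized CPM in P522R replicate 2, 275 and 177 in P522R replicate 3, 428 and 119.6 in M28L replicate 2, and 236 and 126 in M28L replicate 3. In 5xFAD replicate 3 they had 272 and 183. In 5xFAD replicate 2 the order was turned round, with 21.4 in female and 101 in male nuclei.

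Astrocyte-like nuclei repeated the pattern. Female nuclei were above male ones by 0.79 and 0.69 (log2) in P522R, 0.91 and 0.96 in M28L and 0.39 in 5xFAD replicate 3, and below by −1.13 in 5xFAD replicate 2, where female nuclei had 62.7 and male nuclei 138. Over all 6 libraries the fold change of female over male nuclei was 0.56 in oligodendrocyte-like nuclei (SE 0.34, adjusted p = 0.852 by edgeR's quasi-likelihood test with library as a block) and 0.41 in astrocyte-like nuclei (SE 0.21, adjusted p = 1.00). Without 5xFAD replicate 2 it was 0.96 (SE 0.14, adjusted p = 0.0141) and 0.75 (SE 0.11, adjusted p = 0.00292). That library was the one with the opposite direction in these same values. A larger fold change without it was therefore to be foreseen, and these p-values are no separate support.

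C1qa of microglia-like nuclei was lower in female nuclei in 5 of 6 libraries, by −0.15 on the log2 scale over all libraries (SE 0.13, adjusted p = 0.836), and 5xFAD replicate 2 was again the exception, at 129 in female and 85.0 in male nuclei. With all libraries edgeR called 0 of 13 tests of members, 0 had an unadjusted p under 0.05, and DESeq2 called 0. The share of all genes called was 0.0663% in microglia-like, 0.049% in oligodendrocyte-like and 0.056% in astrocyte-like nuclei. The sexes were not evenly mixed, since female nuclei made up 75.0% and 72.4% of sexed microglia-like nuclei in P522R, 48.4% and 62.3% in M28L, and 45.2% and 69.1% in 5xFAD.

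**Figure D5:**
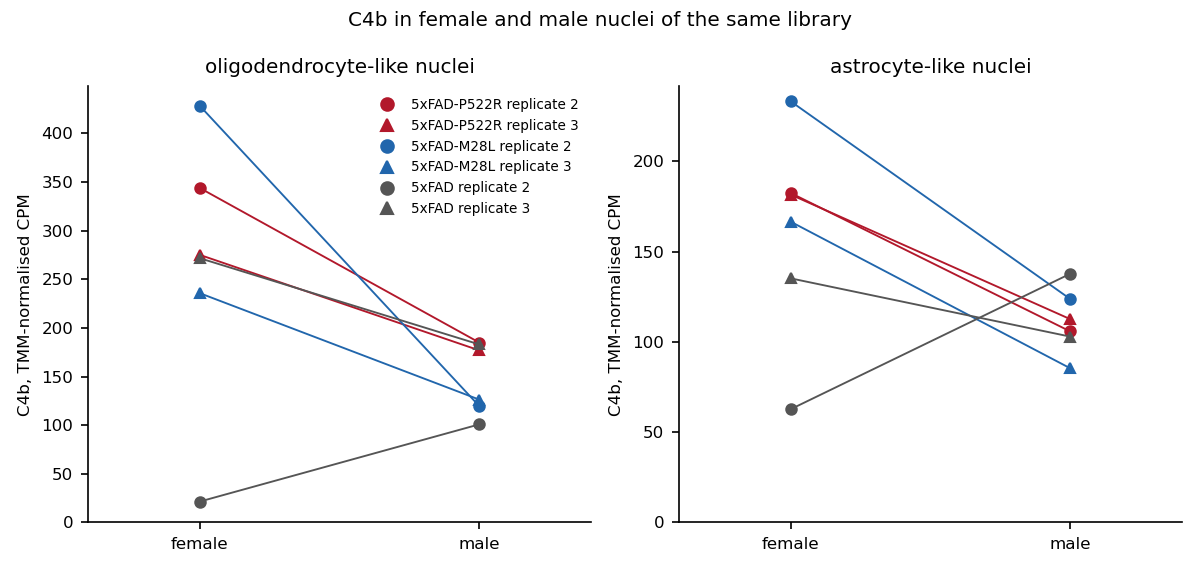
TMM-normalized CPM of C4b in female and male oligodendrocyte-like and astrocyte-like nuclei, with a line joining the sexes of a library. In 5 libraries the female value is higher, and in 5xFAD replicate 2 it is lower, at 21.4 against 101 in oligodendrocyte-like nuclei.

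The rest of the cascade was described with 54 further complement genes. Levels are CPM with no scaling by gene length, so those of different genes cannot be set against each other. Among those with many UMIs in microglia-like nuclei were Csmd3 (4422 ± 478 CPM), Lrp1 (388 ± 58.9) and Csmd1 (215 ± 13.7). Csmd1 and Csmd3 belong to a family of large membrane proteins with complement-control domains, and Lrp1 encodes an endocytic receptor that can bind C1q. Border macrophage-like nuclei had Colec12, a scavenger collectin of the lectin branch, at 771 ± 137. Colec12 was highest in pericyte-like (1821 ± 199.6) and fibroblast-like nuclei (1366 ± 111).

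Other cell types had further genes of the list with many UMIs. Astrocyte-like nuclei had Csmd1 at 541 ± 143 and Clu, the inhibitor clusterin, at 311 ± 71.1. Oligodendrocyte-like nuclei had Csmd3 at 2222 ± 118 and the related Sez6l2 at 389 ± 58.0. OPC-like nuclei had Csmd1 at 7684 ± 342 and neuron-like nuclei at 5013 ± 340. Endothelial-like and pericyte-like nuclei had Vtn, which encodes vitronectin, a brake on the terminal steps, at 648 ± 297 and 889 ± 66.5.

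Of these 54 genes, 24 passed the filter in microglia-like nuclei, and edgeR called 0 in the 3 comparisons. At an unadjusted p under 0.05 there were 7, 5 and 9 for P522R against 5xFAD, M28L against 5xFAD and P522R against M28L. The shares of all genes under that p are given above with the members. The median log2 fold change of the 24 genes was 0.08, 0.05 and −0.10 in that order, beside medians of −0.000905, −0.00238 and 0.000621 over all genes tested. None was called in any other cell type. Inside the disease-associated cluster 15 passed the filter, with 2 called higher and 1 lower for M28L against 5xFAD and 1 higher and 1 lower for P522R against M28L. The shares of all genes called there were 0.942% and 1.24% in these 2 comparisons. The sub-cluster led by Gpnmb, described above, was smallest in both M28L libraries. The part of the cluster's make-up, by sub-cluster and by sex, in these calls was not tested. Colec12 was also far higher in border macrophage-like, pericyte-like and fibroblast-like nuclei. The part of transcripts of other cell types in its values here was not tested. Colec12 had 139.9 and 52.7 normalized CPM in P522R, 13.6 and 20.6 in M28L, and 63.4 and 78.2 in 5xFAD, so M28L was lowest. It rose by 2.40 on the log2 scale in P522R against M28L (SE 0.38, adjusted p = 0.00124), a call kept in each alternative run. In M28L against 5xFAD it fell by 2.07 (SE 0.39, adjusted p = 0.0115), a call lost by DESeq2 (adjusted p = 0.0982) and without 5xFAD replicate 3 (adjusted p = 0.296).

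Csmd3 had 3256 and 3869 in P522R, 5063 and 5060.5 in M28L, and 3635 and 3966 in 5xFAD. It was lower in P522R than in M28L (−0.51, SE 0.09, adjusted p = 0.0064) and higher in M28L than in 5xFAD (0.41, SE 0.09, adjusted p = 0.0392). The first call was lost without P522R replicate 2 (adjusted p = 0.0956) and the second without either M28L library or 5xFAD replicate 2 (adjusted p = 0.0506 to adjusted p = 0.107). Lrp1 had 485 and 402 in P522R, 506 and 528 in M28L, and 401 and 344 in 5xFAD. It was higher in M28L than in 5xFAD (0.50, SE 0.11, adjusted p = 0.0352), a call lost by DESeq2 (adjusted p = 0.0539) and without M28L replicate 3 (adjusted p = 0.151) or 5xFAD replicate 3 (adjusted p = 0.427). In cluster 2, where 14 of the 54 passed the filter, Lrp1 had 453 and 457 in P522R and 249 and 292 in 5xFAD. It was the 1 call there (0.72, SE 0.13, adjusted p = 0.0235), beside 0.0749% of all genes for P522R against 5xFAD. That call was lost by DESeq2 (adjusted p = 0.18) and without either P522R library or 5xFAD replicate 2 (adjusted p = 0.0524 to adjusted p = 0.216).

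The genes with the most similar pattern were found by Pearson's r of log2(CPM + 1). Over 60 pairs of cell type and library, which share libraries and depth, these were Pik3cg for summed C1q (r = 0.96), Ikzf1 for Itgam (0.96), Tlr13 for C3ar1 (0.97), Ifi209 for C5ar1 (0.98) and Megf10 for C4b (0.77). Ikzf1, Tlr13 and Pik3cg are known from blood and immune cells, and Megf10 encodes an engulfment receptor of astrocytes. Over 24 pairs of microglial cluster and library they were Frmd4a for C1q (0.92), Nos1ap for Itgam (0.93), Cpeb1 for C3ar1 (0.83), Ubald1 for C5ar1 (0.92) and Ube2l6, an interferon-induced conjugating enzyme for ubiquitin-like proteins, for C4b (0.80). C3 had too few UMIs for such a comparison.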

How the data were processed

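Raw UMI counts, as deposited by the authors, came as 1 gene-by-nucleus matrix per library. Cell Ranger 6.1.2 with mm10 is given by the submitters' processing notes, and per the file headers 1 library (P522R replicate 3) carries 5.0.1. The counting of intron reads is not given in the sources used here. Nuclei were sorted as NeuN-negative, and libraries made with 10x Genomics 3' v3 chemistry, per the labels' protocols.

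Kept nuclei (62651) had a minimum of 500 UMIs and 300 genes, with mitochondrial UMIs up to 5%. Doublets were called with Scrublet in scanpy 1.11.5 at a common threshold of 0.311, the median over 4 libraries, because the tool's own threshold found under 0.5% doublets in both P522R libraries, and 2566 were removed. Clusters (Leiden, leidenalg 0.10.2, resolution 1, with 1985 variable genes and 30 components, complement genes left out) numbered 33, of which 6 stayed unnamed, and 48864 of 60085 nuclei lay in named ones. A name needed at least 3 markers, a share of 0.4 of them and no more leading genes of another class. Microglia-like nuclei were clustered again at resolution 0.5. Counts were summed over the nuclei of a type in each library, for types with 20 or more nuclei in all 6 libraries, and went through the quasi-likelihood test of edgeR 4.0.16 under R 4.3.3 (filterByExpr at a minimum count of 10, TMM, two-sided, all 6 libraries in 1 fit, Benjamini-Hochberg over all genes tested, threshold 0.05). The 3 comparisons share libraries. Sexes were compared within libraries. Alternatives were DESeq2 1.42.0, other filters, thresholds, resolutions and sexes, the replicate number as a block, and each library left out. All 8 members are named, with the other complement genes past the threshold or among the 4 highest of a type, the genes most like each member, and those a result turned on. The scripts were tested on simulated data. The members, lists and rules were chosen with earlier results of these data known.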

Additional observations from a re-analysis of the deposited data

Results flagged for a closer look

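The library 5xFAD replicate 2 stood outside the 5 others in 3 of 13 sets of 6 female-to-male fold changes (Dixon's test at 95%, in which chance picks about 1 set in 20). Its log2 fold change of female over male nuclei was −2.23 for C4b in oligodendrocyte-like nuclei, −1.13 for C4b in astrocyte-like nuclei and 0.60 for C1qa in microglia-like nuclei.

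The female-to-male fold change had opposite signs in both libraries of 2 groups in 6 of 39 pairs of groups, and the difference itself was not tested. With 2 libraries a group such signs also arise by chance. Their share over all genes was not counted, so the 6 pairs are only listed. For C1qc in microglia-like nuclei the mean was −0.50 in M28L and 0.28 in 5xFAD. For C4b in microglia-like nuclei it was −0.67 in P522R and 1.06 in M28L. For Itgam in microglia-like nuclei it was −0.31 in P522R, 0.10 in M28L and 0.28 in 5xFAD. In oligodendrocyte-like nuclei, where both genes are at trace levels, it was −0.24 in P522R and 0.69 in 5xFAD for C1qa, and 0.10 in P522R and −0.079 in 5xFAD for C1qc.

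Outside the comparisons, 93 olfactory ensheathing-like nuclei had 169 CPM of C4b on 87 UMIs pooled over libraries. An unnamed cluster of 1211 nuclei of low UMI number had 35.4 CPM of C1qb on 58 UMIs.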

How the results depend on the processing

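Of 62 fold changes followed through 820 alternative values, 746 kept their direction and their side of the threshold, 13 lost a call, 25 gained one and 36 changed sign, the last all in fold changes that were not called. Members called between genotypes in microglia-like nuclei numbered 0, but 4 with no filter on low counts, 1 in fits of only the 4 libraries compared, and 0 to 3 with a library left out. In other cell types they numbered 0, but 8 with no filter and 0 to 3 with a library left out. Within microglial states they numbered 0 to 1, and between sexes 0 to 2, with a library left out. With the replicate number as a block, 1 was called in microglia-like nuclei (C1qb, adjusted p = 0.0493) and 3 within states (Itgam in 2 comparisons, adjusted p = 0.0052 and adjusted p = 0.0135, and C5ar1, adjusted p = 0.0211). Over all genes in microglia-like nuclei DESeq2 called 101, 7 and 103 for P522R against 5xFAD, M28L against 5xFAD and P522R against M28L, where edgeR called 0, 1 and 1. The labels do not say that a replicate number marks a batch and each comparison has only 2 numbers. Same-numbered microglial libraries deviated together at r of 0.17 to 0.30.

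Signs changed in nuclei with a Y-linked UMI only for C3ar1 (−0.20) and Itgam (0.15) of P522R against 5xFAD, C4b of M28L against 5xFAD (−0.28) and Itgam of P522R against M28L (0.036) in microglia-like nuclei, and for C4b of M28L against 5xFAD in oligodendrocyte-like (−0.22) and astrocyte-like nuclei (−0.19) and of P522R against 5xFAD in the last (−0.15). In Xist-positive nuclei only they changed for C1qa (−0.25), C1qc (−0.30) and Itgam (−0.044) of M28L against 5xFAD in microglia-like nuclei, and for C4b of P522R against M28L in microglia-like (−0.26), oligodendrocyte-like (−0.10) and astrocyte-like nuclei (−0.14). C4b of M28L against 5xFAD in microglia-like nuclei was −0.0080 at Leiden resolution 2, and C4b of P522R against M28L in oligodendrocyte-like nuclei was −0.016 with 2 further clusters, an alternative chosen after seeing the data. The cause was not tested.

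With a library left out, microglial fold changes of M28L against 5xFAD went from −0.030 to 0.16 (C1qa), −0.053 to 0.18 (C1qc), −0.42 to 0.097 (C5ar1), −0.16 to 0.24 (Itgam) and −0.31 to 0.93 (C4b), and those of P522R against 5xFAD from −0.015 to 0.12 (C3ar1) and −0.37 to 0.024 (Itgam). C4b of P522R against M28L went from −0.26 to 0.39 in oligodendrocyte-like and −0.089 to 0.37 in astrocyte-like nuclei, and of M28L against 5xFAD from −0.15 to 1.62 in pericyte-like nuclei. In the disease-associated cluster P522R against 5xFAD went from −0.17 to 0.060 (C1qa), −0.025 to 0.14 (C1qb), −0.40 to 0.14 (C3ar1) and −0.043 to 0.14 (Itgam), and M28L against 5xFAD from −0.074 to 0.14 (C1qa) and −0.0034 to 0.81 (C5ar1).

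Unthinned, the share of nuclei with a UMI was 44.3% for C1qb, 62.8% for Itgam and 16.7% for C3ar1 in microglia-like, 37.2% and 41.5% for C4b in oligodendrocyte-like and astrocyte-like, and 19.6% for C5ar1 in border macrophage-like nuclei. Fits on 1 sex gave no value in border macrophage-like, committed precursor-like, endothelial-like, fibroblast-like and pericyte-like nuclei, and cluster 2 none at microglial resolution 1. With 2 libraries a group and few UMIs of C3, C5ar1 and C4b outside glia, small differences were not detectable.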
